A study of Bos taurus with 2 samples.

Results

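The genes of the elastic fibre were compared between the longissimus thoracis (LT) muscles of fetuses from undernourished and well-fed dams. A list of 10 genes was examined (*ELN*, *FBN1*, *FBN2*, *FBLN1*, *FBLN5*, *EFEMP2*, *MFAP2*, *MFAP4*, *MFAP5* and *LTBP4*). Every array probe whose accession mapped to one of these symbols was taken, which gave 19 of 43652 probes, for 8 of the 10 genes. *FBN2*, the fibrillin best known from fetal tissue, and *LTBP4*, a latent TGF-β binding protein that takes part in elastin assembly, had no probe with a matched accession and were not analysed here. The list was chosen by someone who already knew the log2 ratios of these genes between the same 2 arrays, so the differences below are a description of the members and not independent evidence about them.

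The fetuses came from Japanese Black cows given feed at 60% (low nutrition, LN, 5 dams) or 120% (high nutrition, HN, 6 dams) of the nutritional requirement through gestation, starting before pregnancy. All cows were inseminated with male-sorted semen of a single sire, and muscle was taken at 8.5 months of gestation (day 260 ± 8.3). For each group the RNA of 4 fetuses was mixed and measured on 1 array. The HN pool held the heaviest and the LN pool the lightest fetuses, so that diet and selection on body weight (BW) cannot be told apart, and the variation between fetuses is not known. No group was fed exactly the requirement. The group sizes are those of the paper's methods, whereas its carcass table heads the groups with 5 for HN and 6 for LN. Differences are given as log2 LN/HN, and positive values denote a higher signal in the LN pool. Genes and probes are counted when this difference is past 0.32 in either direction, which means a signal 25% higher in one pool than in the other.

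Elastic fibres give tissues the ability to recoil after stretch. Their core is elastin, which is secreted as the soluble precursor tropoelastin and crosslinked by lysyl oxidases. The core is laid down on a scaffold of microfibrils built from fibrillins, to which microfibril-associated glycoproteins bind, and fibulins help to bring tropoelastin, crosslinking enzyme and microfibrils together. In muscle, such fibres lie in the connective tissue around fibres and fascicles and in the walls of vessels, where fibroblasts and smooth muscle cells make them.

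All 19 probes were well above background on both arrays, and none carried an outlier flag. The median signal of an array was 49.1 for HN and 48.4 for LN, whereas the negative controls had a median of 1.24 and 1.51, and no spot was saturated. In 42 probes printed several times, the log2 ratios of repeated spots had an SD of 0.0863. The software's own error estimate was larger, with a median of 0.212 on the log2 ratio of a spot, and is given with each value as ±. Before normalization, the spike-in RNAs, added equally to both samples, had log2 ratios between -0.122 and 0.0536 (8 RNAs). These errors cover the array measurement and not the animals. Differences of signal between probes were not read as differences of expression, because probes bind with different strength.

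*ELN*, the gene of elastin itself, showed the largest difference of the 8 measured members. It was higher in the LN pool by 0.82 ± 0.09 on the log2 scale (1.77-fold), as the mean of 6 probes, which had an SD of 0.29. Its brightest probe had a signal of 6818 in HN and 13755 in LN, so that log2 LN/HN was 0.99 ± 0.20. This probe was thus close to doubled. The probe of intermediate signal went from 115.8 in HN to 220.2 in LN (0.91 ± 0.20). The other 4 probes were dim, with HN signals between 28.7 and 39.5 and LN signals between 37.4 and 64.9. They gave log2 LN/HN values of 0.42 ± 0.22, 0.56 ± 0.21, 0.84 ± 0.21 and 1.21 ± 0.22, so the dim probes held both the smallest and the largest difference of the gene. All 6 probes were higher in the LN pool by more than the software's error, and all 6 were past 0.32. The probes share 1 accession, and the files do not say which exons they bind.

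**Figure D1:**
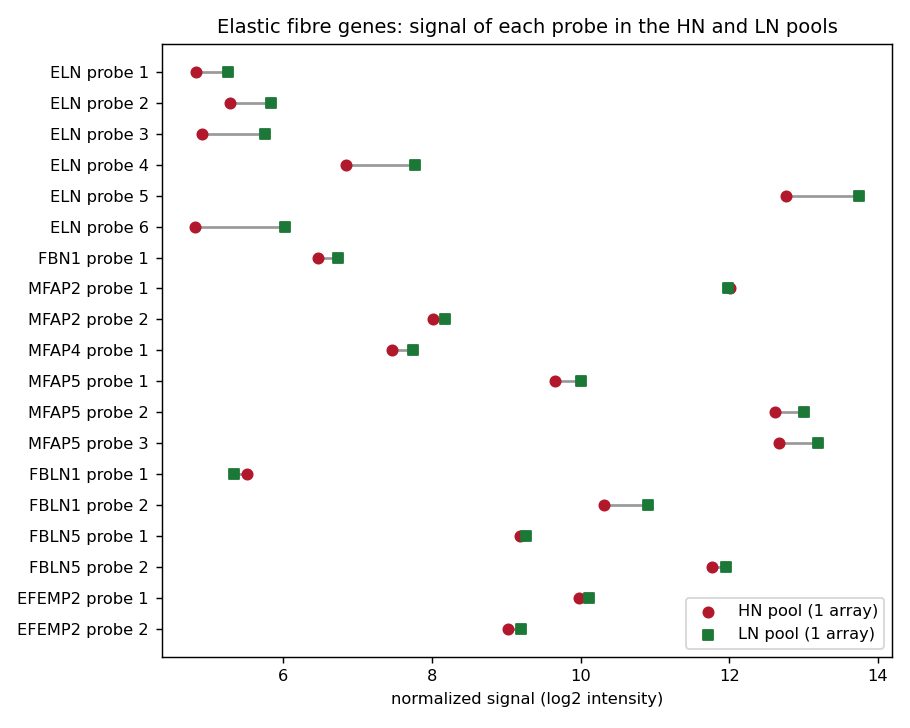
Normalized signal (x axis, log2 intensity) of each of the 19 probes of the elastic fibre genes, with the HN pool as circles and the LN pool as squares, 1 array each. The LN signal lies to the right of the HN signal in all 6 probes of *ELN* and all 3 of *MFAP5*, and to its left in 1 probe each of *MFAP2* and *FBLN1*.

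The size of the *ELN* difference depended on the processing. It lay between 0.77 and 0.87 with the other scalings of the arrays, the deposited log2 values and the median of the probes, and was 0.99 with the brightest probe alone. After the normexp background correction, which started from the spot medians and added an offset of 50, it was 0.49. With that correction the brightest probe gave 1.08, the intermediate probe 0.71, and the 4 dim probes 0.18 to 0.44. The 2 brighter probes therefore held a log2 LN/HN between 0.71 and 1.08 under all scalings and corrections shown in the plot of the 6 probes.

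**Figure D2:**
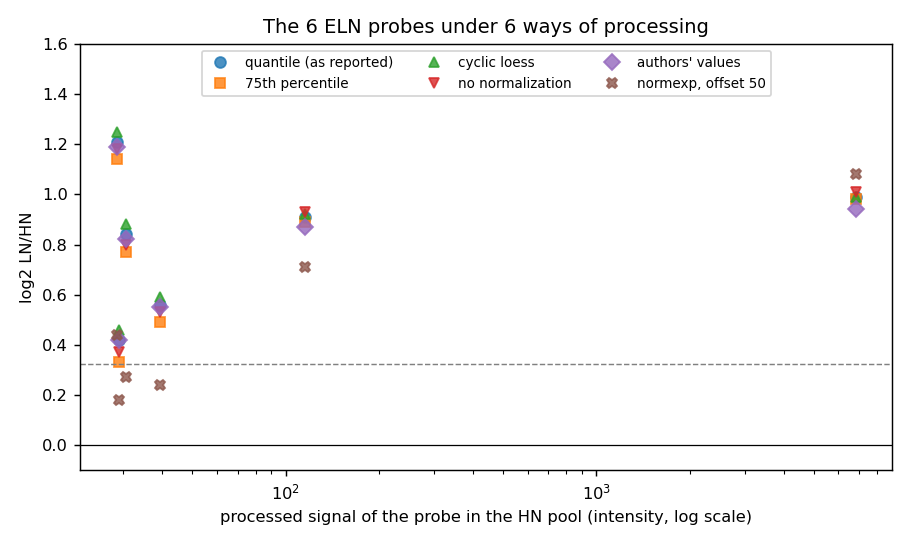
The log2 LN/HN of the 6 *ELN* probes (y axis) against their processed signal in the HN pool (x axis, intensity on a log scale) under 6 ways of processing, with the dashed line at 0.32. All points lie above 0, and the points of the normexp correction fall below the line for 3 of the 4 dim probes.

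Among the microfibril genes, *FBN1* encodes fibrillin-1, the main building block of microfibrils. Its only probe had a signal of 89.1 in HN and 105.6 in LN (0.26 ± 0.21). The value for *FBN1* was below 0.32 and barely larger than the error of the spot.

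*MFAP5*, which encodes the microfibril-associated glycoprotein MAGP2, differed most among the microfibril genes. Its 3 probes had signals of 6411, 6161 and 798.4 in HN and of 9436, 8282 and 1043 in LN. The log2 LN/HN values were 0.52 ± 0.20, 0.40 ± 0.20 and 0.34 ± 0.20, respectively. All 3 were past 0.32, and the gene had a mean of 0.42 ± 0.12 (1.34-fold, SD between probes 0.09). Under the alternative settings that combine its probes *MFAP5* ranged from 0.39 to 0.46, and its brightest probe alone gave 0.52.

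*MFAP2* encodes MAGP1, the close relative of the *MFAP5* product. Its brighter probe had nearly the same signal in both pools, with 4071 in HN and 4105 in LN (log2 LN/HN -0.03 ± 0.20 after normalization), and the other had 258.3 in HN and 289.6 in LN (0.15 ± 0.20). The mean of 0.06 ± 0.14 was within the error, and its sign turned with the brightest probe alone. The distance between *MFAP5* and *MFAP2* was larger than the errors of both genes.

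*MFAP4*, which encodes a fibrinogen-domain protein that binds elastin and fibrillin, had 1 probe with a signal of 175.2 in HN and 215.9 in LN (0.28 ± 0.20). This value was below 0.32.

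The fibulin genes differed less than *ELN*. *FBLN5*, required for elastic fibre formation in mice, had signals of 3448 in HN and 4042 in LN for its brighter probe (0.18 ± 0.20) and of 575.3 and 627.0 for the other (0.08 ± 0.20). *EFEMP2*, which encodes fibulin-4, a protein that brings lysyl oxidase to tropoelastin, had signals of 990.9 in HN and 1124 in LN for one probe (0.13 ± 0.20) and of 512.8 and 598.5 for the other (0.18 ± 0.20). Both probes of both genes were higher in the LN pool, but each by less than the software's error. The means were 0.13 ± 0.14 for *FBLN5* and 0.15 ± 0.14 for *EFEMP2*.

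The probes of *FBLN1*, which encodes the elastin- and fibronectin-binding protein fibulin-1, did not move together. The brighter probe had a signal of 1257 in HN and 1950 in LN, a difference of 0.59 ± 0.20 that was past 0.32. The dim probe had a signal of 46.0 in HN and 39.6 in LN (-0.18 ± 0.22). The mean of *FBLN1* was 0.20 ± 0.15, with an SD of 0.55 between its probes, which was the largest among the members. Both probes of *FBLN1* share 1 accession.

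**Figure D3:**
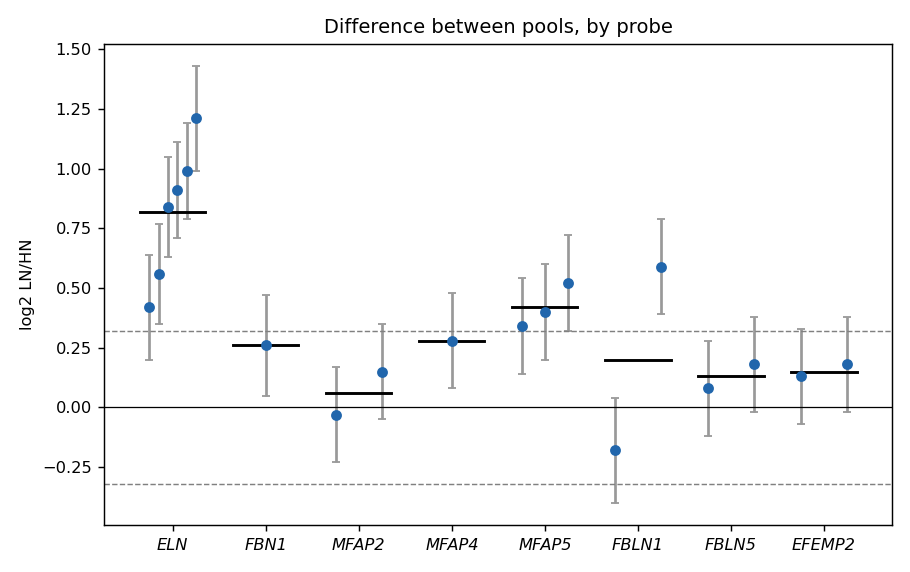
The log2 LN/HN of each probe (y axis) by gene, with the software's error as bars and the mean of a gene as a horizontal line. Dashed lines mark 0.32 and -0.32. All probes of *ELN* and *MFAP5* lie above the upper dashed line, and the probes of *FBLN1* lie on both sides of 0.

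By gene, all 8 measured members had a higher mean in the LN pool, as did 9636 of all 19554 genes with a value. The means of *MFAP2* and *FBLN5* were within their errors. The median log2 LN/HN of the members was 0.231, against -0.003 over all genes. *ELN* and *MFAP5* were past 0.32 higher, and no member was past 0.32 lower or past 2-fold. Over all genes, 8.85% were past 0.32 higher and 9.11% lower. Of these 19554, 10637 had a matched symbol, as the members do, and the others were transcripts known here only by their accession or probe name. Among the genes with a symbol, the median was -0.002, and 7.8% were past 0.32 higher and 8.01% lower. The members were selected on this same contrast, and nothing is read from their share against that of all genes. At the level of probes, 10 of the 19 were past 0.32 higher, against 8.59% of the 30639 probes well above background on both arrays. Of the genes with at least 3 such probes, 1.27% had every probe past 0.32 higher (38 of 2987), among them *ELN* and *MFAP5*. In the order of all 19554 genes from the highest log2 LN/HN downwards, *ELN* was at place 271, *MFAP5* at 1125, *MFAP4* at 2165, *FBN1* at 2438, *FBLN1* at 3276, *EFEMP2* at 4362, *FBLN5* at 4967 and *MFAP2* at 7317. From *MFAP4* onwards, neighbours in this order differed by less than their errors.

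**Figure D4:**
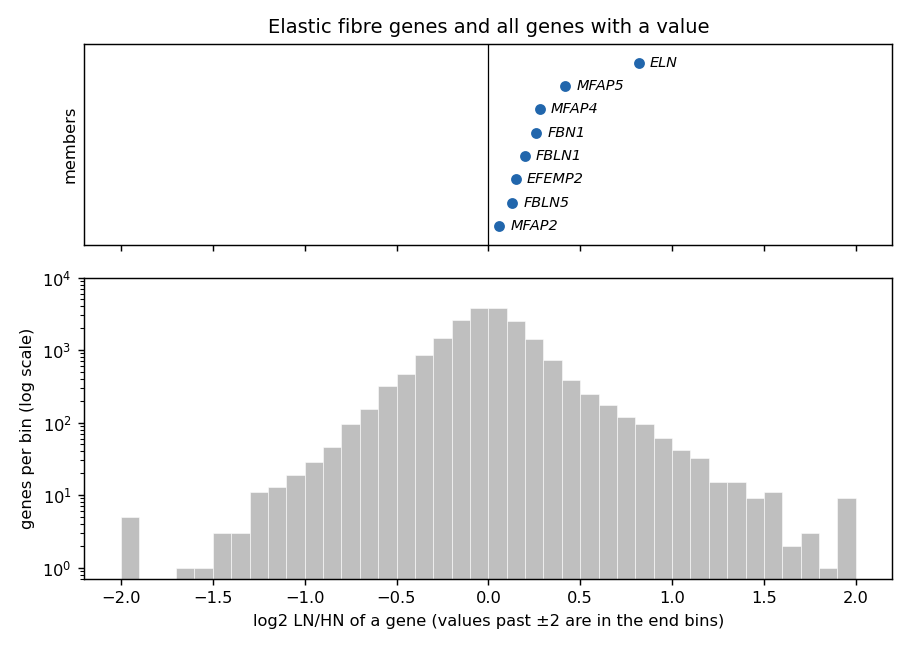
Upper panel, the log2 LN/HN of the 8 measured elastic fibre genes (x axis). Lower panel, the number of genes per bin of log2 LN/HN (y axis, log scale) over all 19554 genes with a value. All 8 genes lie to the right of 0, and *ELN* at 0.82 lies farthest out.

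The median of the members stayed between 0.16 and 0.27 over 11 alternative settings. The division of all genes past 0.32 was 1731 higher and 1781 lower. With the 75th percentile of each array subtracted it was 1191 higher and 2693 lower, and without normalization it was 1462 and 2260. In the surroundings of the member spots, within 10 rows and columns on the slide, the median log2 LN/HN of 160 to 321 other spots lay between -0.045 and 0.053 after normalization. The part of a spot's position on the slide in its value was not tested.

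The proteins that work with elastin and the microfibrils were examined with a list of 68 related matrix genes, of which 54 had a value, 4 were not detected and 10 had no matched probe. Of the 54 genes, 30 were higher and 24 lower in the LN pool, with a median log2 LN/HN of 0.053. Past 0.32 in size, 3 were higher (*LOX*, *LTBP2* and *VCAN*) and 2 lower (*LOXL2* and *ADAMTS10*). Over all genes, 8.85% were past 0.32 higher and 9.11% lower, both larger shares than in this list. The related genes as a whole thus had a median close to that of all genes and no excess of genes past 0.32.

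Crosslinking enzymes differed among themselves. *LOX*, the lysyl oxidase that crosslinks elastin and collagen, had a single probe with a log2 signal of 8.95 in HN and 9.78 in LN, a log2 LN/HN of 0.84 ± 0.20 (1.79-fold). This was similar in size to the value of *ELN*, and it was 0.72 after the normexp correction. *LOXL1*, the family member tied most closely to elastic fibres, had 1 probe, with a difference of 0.25 ± 0.21. In contrast, *LOXL2*, whose main known substrate is basement membrane collagen, was lower in the LN pool by all 3 probes (-0.91, -0.36 and -0.35), with a mean of -0.54 ± 0.12. The mean of *LOXL2* was -0.29 after the normexp correction. The median of the 6 crosslinking genes was 0.196.

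Of the 11 relatives of the members, 6 had a value, and their median was 0.142. *LTBP2*, a latent TGF-β binding protein that associates with microfibrils, had a mean log2 LN/HN of 0.63 ± 0.16, but its probes differed, with a log2 signal of 7.32 in HN and 8.37 in LN for one (1.05) and of 4.77 and 4.97 for the other (0.20). The mean was 0.41 after the normexp correction. *LTBP1*, which anchors latent TGF-β to the matrix, was nearly the same in both pools (-0.01 ± 0.11, with 4 probes from -0.18 to 0.12). *EFEMP1*, which encodes fibulin-3, had a log2 LN/HN of 0.14 ± 0.15, and *FBLN2* had no matched probe.

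The elastin-associated interface proteins had a value for 3 of 5 genes, of which 2 were higher and 1 lower in the LN pool, with a median of 0.091. The lower one was *EMILIN1*, a glycoprotein at the interface of elastin and microfibrils, with both probes lower (-0.34 and -0.10, mean -0.22 ± 0.15).

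Among 9 measured genes of microfibril assembly, the median was 0.111. *VCAN*, which encodes the fibrillin- and fibulin-binding proteoglycan versican, had 1 probe with a log2 signal of 4.90 in HN and 5.75 in LN, a log2 LN/HN of 0.85 ± 0.22. The probe was dim, and its difference was 0.35 after the normexp correction. *ADAMTS10*, an ADAMTS family protein that binds fibrillin-1, was lower in the LN pool (-0.57 and -0.28, mean -0.42 ± 0.21), with both probes dim, and was -0.14 after that correction.

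The remaining groups held no gene past 0.32. The medians were 0.007 for the 6 latent growth factors and receptors, among them the TGF-β ligands, and 0.006 for the 10 cell receptors of elastin and microfibrils. For the 8 elastin-degrading proteases the median was -0.084, with values from -0.24 to 0.18, and for the 6 protease inhibitors it was -0.095, with values from -0.30 to 0.23. The proteases *MMP7* and *MMP12*, the latter the macrophage elastase, were not detected on either array.

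**Figure D5:**
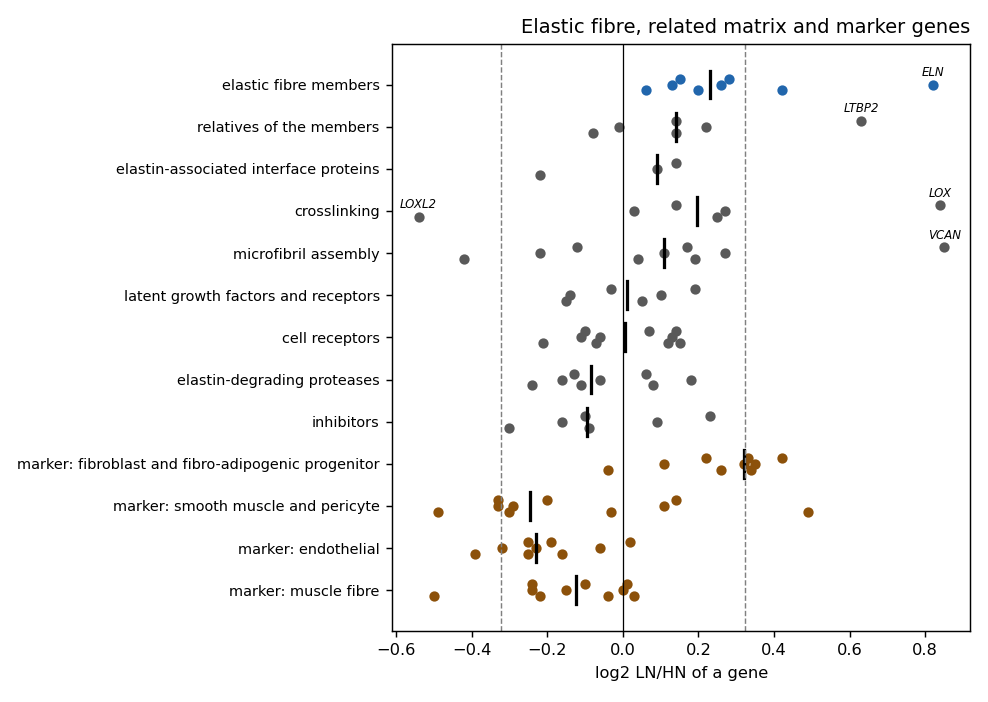
The log2 LN/HN of each gene (x axis) in the elastic fibre list, in the 8 groups of related matrix genes and in 4 lists of cell type markers, with 1 point per gene and a bar at the median. Dashed lines mark 0.32 and -0.32. *ELN*, *LOX*, *VCAN* and *LTBP2* stand to the right of the other genes, fibroblast markers lie mostly above 0, and endothelial markers mostly below it.

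Markers of skeletal muscle fibres, which do not tell the LT from other muscles, were detected on the arrays. Of 12 such markers 10 had a value, and 2 (*TNNI2* and *TTN*) had no matched probe. Past 0.32, 1 of them was lower (*MYH1* -0.50), against 9.11% of all genes. Their median log2 LN/HN was -0.124, and the summed signal of their 39 probes was 3860921 in HN and 3688486 in LN. Markers of fibroblasts and fibro-adipogenic progenitors, cells that make elastic fibres, were higher in the LN pool. Of 9 measured markers, 8 were higher and 4 past 0.32 (*COL1A1* 0.34, *COL1A2* 0.42, *COL3A1* 0.33 and *LUM* 0.35, named here after their values were seen). Over all genes, 8.85% were past 0.32 higher. The median of the list was 0.320, and the summed signal of its 43 probes was 359050 in HN and 455248 in LN, a ratio of 1.27. The median stayed between 0.25 and 0.35 over the alternative settings, but the count of 4 did not hold in all of them. *COL3A1* was at 0.31 with the 75th percentile subtracted and in the deposited log2 values, and *LUM* was at 0.25 after the normexp correction and with its brightest probe. *DCN* is also in the related matrix list. *ELN* differed more than any of these markers, whereas the value of *MFAP5* was the same as that of *COL1A2*.

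Markers of smooth muscle cells, which make elastin in vessel walls, and of pericytes were mostly lower. Of 10 measured markers, 7 were lower and 3 past 0.32 lower (*MYH11* -0.49, *ACTA2* -0.33 and *TAGLN* -0.33). *PDGFRB* had a mean of 0.49 over 3 probes, in which 1 probe entered as a limit because it was well above background on 1 array only. Over all genes, 8.85% were past 0.32 higher and 9.11% lower. The median of the list was -0.244, and the summed signal of 25 probes was 31555 in HN and 28581 in LN. After the normexp correction the median of this list was -0.0944, *MYH11* was at -0.28 and *TAGLN* at -0.29, and with the brightest probe of each gene the median was -0.12. *ACTA2* was at -0.30 without normalization and at -0.31 in the deposited log2 values. Endothelial markers had a median of -0.233, with 8 of 9 lower, but only 1 was past 0.32 lower (*CLDN5* -0.39). Their summed signal was 36707 in HN and 28792 in LN over 19 probes. The tendon markers had a median of 0.159 (6 of 7 measured, *SCX* without a matched probe), which became -0.12 without a filter on dim probes or with dim values as measured. They did not move together, with *TNMD* at -1.07, the only marker past 2-fold in any of the lists, and *MKX* at 0.37 and *KERA* at 0.36. The adipocyte markers had a median of 0.209 (4 of 6 measured, with *LEP* not detected), which became 0.0486 when no filter was set. The cartilage markers had a median of -0.071 over the 2 measured genes, with *ACAN* not detected, and over the alternative settings it ranged from -0.25 to 0.10. In such bulk samples, more cells of a type and more RNA per cell cannot be told apart. The part of cell composition in the difference of *ELN* and the other members was not tested.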

How the data were processed

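Muscle RNA of the HN and LN pools was labelled with Cy3 and hybridized to 1 array each. Per the file headers, the spot signals are background-corrected intensity values from Agilent Feature Extraction 11.0.1.1, without normalization between the arrays. The authors also deposited log2 values of 30027 probes, which they normalized by the quantile method. The log2 scale was judged from the values.

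Log2 intensities of the 43803 non-control spots were normalized by the quantile method (limma 3.58.1, R 4.3.3), 13 spots with an outlier flag were removed, and spots of a probe were averaged in Python 3.11.15 (pandas 2.3.3, numpy 2.4.6). Figures were drawn with matplotlib 3.10.9. Probe accessions were matched to symbols with the RefSeq gene table of ARS-UCD2.0 (26742 of 43652 probes). The headers name another assembly, so no coordinates are given. Probes marked well above background on 1 or both arrays were kept as detected, and a dim side was then set to the lowest such spot (log2 2.27 on HN and 2.82 on LN) unless its own value was higher. A probe detected on 1 array only was left out where its dim side was then not below the detected side. A gene is the mean of its remaining detected probes, and threshold counts use 0.32 on the log2 scale (25% higher in one pool). No test was possible with 1 array per group. The error of a probe combines the error estimates of the software on both arrays, and that of a gene is their root sum of squares divided by the number of probes, which treats probes as independent.

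The members, the gene lists and the rule for named genes (all members, 6 fixed relatives and enzymes, and related genes past 0.32) were chosen with earlier results of these data known. No column of sample values was left unassigned (0 columns). The gene step was run on simulated data of 18249 genes. All 200 changed genes passed 0.32 in the right direction (100%), and 22 of 18049 unchanged genes also passed it. Recovery of differences close to 0.32 was not tested, nor was the limit set for dim probes. The alternatives were 3 other scalings, the deposited log2 values, 3 filters on dim probes, 2 ways of combining probes, outlier spots kept, and the normexp correction with offset 50. The latter was run on spot medians, a choice made after the files were seen to hold no spot means.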

Additional observations from a re-analysis of the deposited data

How the results depend on the processing

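The members' direction was kept in 11 alternative settings except for *MFAP2*, which was -0.0293 with the brightest probe alone. The 3 filters on dim probes and the kept outlier spots could not change any member. The median of the probes could not change genes with 1 or 2 probes. With these fixed values counted in, 85 of 88 values of members under the 11 settings moved by less than the error of the gene. The others were *ELN* (0.49 after the normexp correction, 0.99 with the brightest probe) and *FBLN1* (0.59 with the brightest probe, which brought the count of members past 0.32 higher from 2 to 3). The count of all genes past 0.32 moved more. It was 386 lower and 319 higher after the normexp correction, 3592 lower and 3251 higher without a filter on dim probes, and 2693 lower with the 75th percentile subtracted. The normexp setting changed the input signal, the background model and the offset together, and the cause of these shifts was not tested. Adding probes by a gene name column was not run, because the array files hold none. With 1 array per pool, no replicate could be left out, and the signal over background limits the dim probes of *ELN*, *FBLN1*, *VCAN* and *ADAMTS10*.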
